A study of Mus musculus with 19 samples.

Results

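The mRNA levels of 10 genes that mark fat cells were examined in 19 primary sarcomas grown in mouse muscle. The 10 genes were chosen by name (Adipoq, Lep, Retn, Cfd, Plin1, Cidec, Pparg, Fabp4, Lpl and Cd36) as known fat cell genes, with no threshold on a value. The choice was made with earlier results of these data known. All 10 were found among the 48795 gene IDs of the expression table. The tumors were p53/MCA sarcomas started in the gastrocnemius by an adenovirus (Adeno-sgp53-Cas9) that carries Cas9 and a guide RNA against Trp53, after which the carcinogen MCA (300 µg in sesame oil) was injected at the same leg. Of the 19 tumors, 11 came from mice labelled Rag2-/-, which are deficient in lymphocytes because T and B cells do not mature, and 8 from mice labelled Rag2+/-, their littermates, which have both. All mice received the adenovirus and MCA, none was treated further, and each tumor was taken at 70 to 150 mm3 as 1 library of whole tumor RNA. The methods state an age of 6 to 10 weeks at the start for the study's sarcomas made with Cre recombinase, and do not repeat an age for the Rag2 mice. The Rag2-null allele is carried by every cell of the mouse, and the methods do not say whether muscle and fat next to a tumor were trimmed away.

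White adipocytes store triglyceride in a single large lipid droplet and release hormones such as adiponectin and leptin into the blood. Fat cells lie between the fibres and bundles of limb muscle and around it, so a tumor that grows in a leg can hold them. The nuclear receptor PPARγ switches on most of the genes named here when a precursor becomes a fat cell. Some of these genes are not made by fat cells alone: Lpl and Cd36 are also used by muscle fibres, and Cd36 and Fabp4 by capillary endothelium and macrophages. In RNA from whole tumors, fewer cells of a type and less RNA per cell cannot be told apart.

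The stretches just upstream of the transcription starts of Adipoq, Lep, Retn and Cfd are shown because the 4 encode secreted proteins and, as described further on, rose and fell together from tumor to tumor. Each is the 250 bases before the RefSeq start, 5′ to 3′ along the gene, in build GRCm38.p6. RefSeq held such windows for 8 of the 10 genes, 11 windows in all, and none for Fabp4 or Lpl. The Adipoq window lies at chr16:23146286-23146535 (+ strand), that of Lep at chr6:29059971-29060220 (+), that of Retn at chr8:3655520-3655769 (+) and that of Cfd at chr10:79890603-79890852 (+). Capitals mark any match, on either strand, to CCAAT, to TATAAA, to the palindrome TTGCGCAA bound by C/EBP factors, to the nuclear receptor hexamer AGGTCA, or to its tandem repeat, 2 copies of AGGTCA with 1 base (N) between them, which contains the hexamer and which PPARγ binds with its partner.
Adipoq: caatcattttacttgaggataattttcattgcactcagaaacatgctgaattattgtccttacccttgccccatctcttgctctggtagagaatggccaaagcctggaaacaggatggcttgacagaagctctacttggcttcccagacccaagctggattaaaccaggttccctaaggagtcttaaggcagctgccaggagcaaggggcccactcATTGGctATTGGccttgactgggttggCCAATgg
Lep: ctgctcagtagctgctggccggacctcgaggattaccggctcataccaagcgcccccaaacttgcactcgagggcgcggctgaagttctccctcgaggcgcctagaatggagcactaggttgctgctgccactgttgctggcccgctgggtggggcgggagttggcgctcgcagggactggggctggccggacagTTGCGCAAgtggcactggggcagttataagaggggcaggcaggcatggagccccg
Retn: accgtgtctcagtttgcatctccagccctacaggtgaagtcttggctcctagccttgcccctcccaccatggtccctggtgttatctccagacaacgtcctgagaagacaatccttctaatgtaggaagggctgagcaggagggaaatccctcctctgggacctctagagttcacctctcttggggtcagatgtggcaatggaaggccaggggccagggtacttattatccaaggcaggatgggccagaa
Cfd: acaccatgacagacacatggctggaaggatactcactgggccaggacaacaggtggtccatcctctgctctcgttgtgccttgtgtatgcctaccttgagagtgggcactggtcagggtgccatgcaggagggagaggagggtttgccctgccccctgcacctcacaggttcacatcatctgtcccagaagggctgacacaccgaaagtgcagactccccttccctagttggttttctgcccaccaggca

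In these windows Adipoq held 3 matches to CCAAT, starting 34, 27 and 7 bases before the start. CCAAT was found in 33.8% of the 32851 RefSeq windows of this length. Lep held the C/EBP palindrome 55 bases before its start, and 0.164% of all windows held one. Retn and Cfd matched none of the 5 motifs. The tandem repeat was in 0 of the 11 windows of these genes and in 0.0335% of all windows, while AGGTCA was in 3 of the 11 (1 of Cd36 and 2 of Pparg) and in 14% of all. TATAAA was in 1 of the 11, a window of Pparg, and in 12.4% of all. A match is a run of letters only, and a window without one says nothing about the factor.

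The values are log2 of upper-quartile normalized FPKM (fragment counts scaled to transcript length and library size) after 0.1 was added, so levels of different genes are comparable per length. The lowest possible value, for no fragment, was −3.32, and 63.0% of all values were there. Depth on genes, estimated from the low values in units of 1e6 fragments, was 24.9 to 33.8 in 18 tumors and 5.24 in S41, a Rag2-/- tumor, where a single fragment on a kilobase of transcript gave a normalized FPKM of 0.208, against 0.0341 to 0.0848 in the others. The genotype differences and the relations with Adipoq were also computed without S41, while the medians and ranges of the groups include it. Rag2 itself was read in both groups, at a median of −0.16 in Rag2-/- and −1.13 in Rag2+/- tumors, but a value for the whole gene does not show whether the targeted segment is present. The T cell gene Cd3e was at −3.32 in 11 of 11 Rag2-/- tumors and above it in 8 of 8 Rag2+/- tumors. Trp53, which the guide cuts but need not silence as mRNA, had a median of 4.25 in Rag2-/- and 4.12 in Rag2+/- tumors.

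The fat cell genes differed more between tumors than nearly any other gene, and 1 tumor, the Rag2-/- tumor S46, was the highest for 10 of 10. S46 is not among the 15 tumors that the study itself analysed, and neither are S41, S51 and S56. The standard deviation over the 19 tumors was 3.96 for Cfd, 3.73 for Cidec, 3.49 for Plin1, 3.46 for Adipoq, 3.29 for Retn, 3.17 for Lep, 2.33 for Fabp4, 1.95 for Lpl, 1.74 for Cd36 and 1.54 for Pparg. The median of the 12826 genes with a mean log2 value above 0 was 0.52, and 94.2% of those genes varied less than Pparg, the steadiest of the 10. Together the 10 genes made up 1.80% of the summed FPKM in S46 and 0.405% in S47, also Rag2-/-. In the other 17 tumors the share ran from 0.00892% in the Rag2+/- tumor S53 to 0.209% in the Rag2-/- tumor S51.

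**Figure D1:**
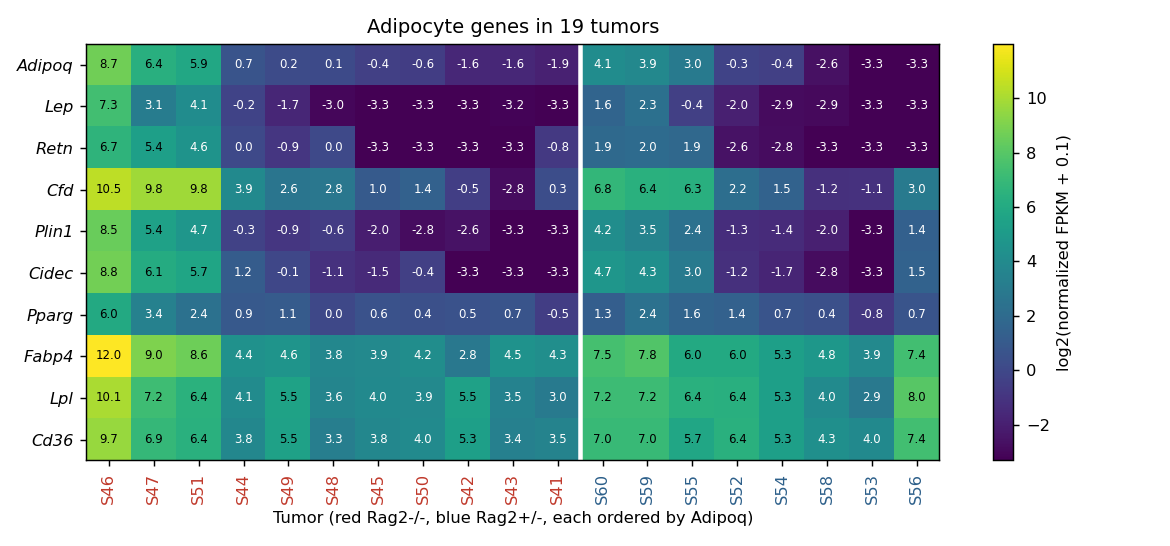
Heat map of log2(normalized FPKM + 0.1) for the 10 fat cell genes (rows) in 19 tumors (columns, red Rag2-/- and blue Rag2+/- labels, each genotype ordered by Adipoq), with the value written in each cell. S46 is the brightest column for all 10 genes, 6 tumors stand out for Adipoq, and S56 is dark for Adipoq, Lep and Retn but bright for Fabp4, Lpl and Cd36.

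Among the secreted products, Adipoq encodes adiponectin, a hormone made almost solely by fat cells (chr16:23146536-23158028, + strand, GRCm38). In Rag2-/- tumors Adipoq ran from −1.94 in S41 through a median of 0.11 to 8.68 in S46. In Rag2+/- tumors it ran from −3.32 in S53 and S56 through a median of −0.36 to 4.13 in S60. It was high in S46, in S47 (6.36), in S51 (5.86), in S60, in S59 (3.86) and in S55 (2.99). The next tumor, S44, was at 0.66, so a gap of 2.33 parted these 6 tumors, 3 of each genotype, from the other 13. S46 alone, at 411 normalized FPKM, carried 68.8% of the Adipoq signal summed over the 19 tumors. The genotypes overlapped between −1.94 and 4.13, and S46, S47 and S51 lay above every Rag2+/- tumor. At S41 the Adipoq value rests on about 1 fragment, and a value of −3.32 at S53 and S56 allows, for counting error alone, at most 3 fragments, which would be −2.34 and −1.75.

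Lep, the satiety hormone leptin (chr6:29060220-29073877, +), was the scarcest of the 10 genes over the 19 tumors by its mean, −0.93. Rag2-/- tumors ran from −3.32, at which 4 of 11 lay, through a median of −3.03 to 7.34 in S46. Rag2+/- tumors ran from −3.32, in 2 of 8, through −2.43 to 2.34 in S59. Only S46, S51 (4.12), S47 (3.10), S59 and S60 (1.59) were above 0, and S46 held 82.0% of the Lep signal of all 19 tumors. The 2 groups overlapped below 2.34, and S46, S51 and S47 lay above every Rag2+/- tumor.

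Retn encodes resistin, which mouse fat cells secrete (chr8:3655770-3660110, +). Its values in Rag2-/- tumors were −3.32 at the lowest, in 4 of 11, −0.80 at the median, in S41, and 6.66 at the highest, in S46. In Rag2+/- tumors they were −3.32, in 3 of 8, then −2.70 and 2.05, in S59. After S46 came S47 (5.36) and S51 (4.57), then S59, S60 (1.91) and S55 (1.87), the same 6 tumors as for Adipoq. The value of S41 rests on an estimated 2.60 fragments, within the 3 that a count of 0 allows.

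Cfd encodes complement factor D, or adipsin, a protease of the complement system that fat cells release in large amounts (chr10:79890853-79892655, +). It had the widest range of the 10 genes, 13.3 on the log2 scale. Rag2-/- tumors ran from −2.80 in S43 through 2.60 to 10.49 in S46, and Rag2+/- tumors from −1.21 in S58 through 2.60 to 6.83 in S60. S47 and S51, both at 9.82, came within 0.67 of S46, so that S46 held 40.1% of the Cfd signal, less than for any of the other 9 genes. The same 6 tumors led as for Adipoq, and the genotypes overlapped.

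The lipid droplet proteins followed the hormones. Plin1, perilipin 1, coats the droplet and holds back its lipases (chr7:79720218-79732903, −). It ran in Rag2-/- tumors from −3.32, in S41 and S43, through −0.89 to 8.47 in S46. In Rag2+/- tumors it ran from −3.32 in S53 through 0.05 to 4.19 in S60. Cidec, which joins small droplets into large ones (chr6:113424634-113435760, −), ran from −3.32, in 3 of 11, through −0.43 to 8.75 in S46 in the Rag2-/- tumors. The Rag2+/- tumors ran from −3.32 in S53 through 0.13 to 4.70 in S60. For both genes the 6 highest tumors were those of Adipoq, and the Rag2+/- tumor S56 came next, at 1.40 for Plin1 and 1.49 for Cidec.

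Pparg, the transcription factor PPARγ (chr6:115360951-115490399, +), was low but was read in every tumor. Rag2-/- tumors ran from −0.54 in S41 through 0.66 to 5.99 in S46, and Rag2+/- tumors from −0.84 in S53 through 0.97 to 2.40 in S59. After S46 the order was S47 (3.43), S51 (2.42), S59, S55 (1.64) and S52 (1.43), and the genotypes overlapped.

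The genes of lipid uptake and binding had a higher base level and were never at the lowest value. Fabp4, the fatty acid binding protein of fat cells (chr3:10204088-10208576, −), ran in Rag2-/- tumors from 2.81 in S42 through 4.41 to 11.999 in S46, and in Rag2+/- tumors from 3.89 in S53 through 6.00 to 7.85 in S59. At 4094 normalized FPKM in S46, Fabp4 was the most abundant of the 10 genes there. Lpl, lipoprotein lipase, frees fatty acids from circulating lipoproteins (chr8:68880491-68907448, +). It ran from 2.97 in S41 through 4.06 to 10.08 in S46 among Rag2-/- tumors, and from 2.90 in S53 through 6.39 to 7.99 in S56 among Rag2+/- tumors. Cd36, a fatty acid transporter of the cell surface (chr5:17781690-17888801, −), ran from 3.26 in S48 through 3.99 to 9.66 in S46, and from 3.97 in S53 through 6.06 to 7.36 in S56. For Lpl and Cd36 the second highest tumor was S56, in which Adipoq, Lep and Retn were all at −3.32. The medians of all 3 genes were lower in Rag2-/- tumors, yet the ranges of the groups overlapped.

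The genotypes were compared to ask whether the fat cell genes differ when T and B cells are missing. With limma, 0 of the 8 fat cell genes with a mean above 0 passed an adjusted p of 0.05, in a comparison in which 4 of 12826 genes did (0.0312%). Those 4, Igkc, Igha, Cd2 and Tnfrsf18, are lymphocyte genes and were lower in Rag2-/- tumors. At an unadjusted p under 0.05 there were 2091 genes in all, or 16.3%, and again 0 of the 8. Lep and Retn, with means below 0, were tested without the filter on low values, where 34 of 25052 genes passed (0.136%) and 0 of the 10. A two-sided exact permutation test with all 75582 relabelings of the tumors called 0 of the 12826 genes after adjustment, with 1917 at an unadjusted p under 0.05, and gave these 10 genes p-values from 0.306 for Cd36 to 0.915 for Plin1. All p-values measure the spread between these tumors, each from 1 library.

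The intervals show how little the comparison fixed. Rag2-/- minus Rag2+/- was 1.30 ± 1.52 (SE) for Adipoq, with a 95% interval from −1.87 to 4.47 (limma adjusted p = 0.607). Retn differed by 1.35 ± 1.45, with an interval from −1.68 to 4.38 (adjusted p = 0.661, no filter), and Lep by 0.74 ± 1.42, from −2.22 to 3.7 (adjusted p = 0.780, no filter). The difference was 0.54 ± 1.76 for Cfd (−3.14 to 4.22), −0.18 ± 1.56 for Plin1 (−3.45 to 3.08) and 0.24 ± 1.67 for Cidec (−3.24 to 3.72). Pparg differed by 0.45 ± 0.69, with an interval from −0.98 to 1.89. Fabp4 differed by −0.45 ± 1.04 (−2.62 to 1.72), Lpl by −0.76 ± 0.85 (−2.54 to 1.02) and Cd36 by −0.85 ± 0.75 (−2.42 to 0.72). Of the 10 intervals, that of Pparg was the narrowest and that of Cfd the widest. A p-value over the threshold does not show that the genotypes were alike.

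**Figure D2:**
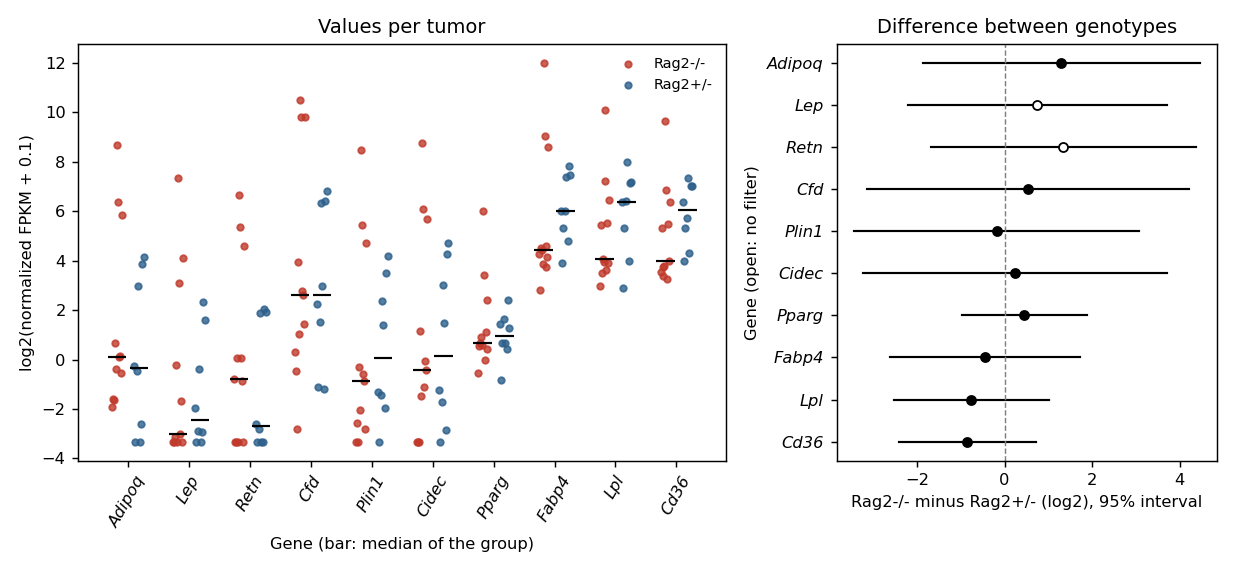
Left, log2(normalized FPKM + 0.1) of each fat cell gene in each tumor (points, red for 11 Rag2-/- and blue for 8 Rag2+/- tumors, bars at the group medians). Right, the difference Rag2-/- minus Rag2+/- on the log2 scale with its 95% interval from limma, open circles for Lep and Retn, which were fitted without the filter; all 10 intervals span 0.

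The direction of several differences rested on which tumors were included. In the 15 tumors that the study analysed, which leave out S41, S46, S51 and S56, the difference became −0.23 for Adipoq, −0.79 for Lep, −0.20 for Retn, −0.71 for Cfd, −0.72 for Cidec and −0.04 for Pparg. Fabp4 was then lower by −1.26 (adjusted p = 0.302) and Cd36 by −1.1975 (adjusted p = 0.234). There 15 of 12877 genes passed (0.116%), and 0 of the 7 of these genes with a mean above 0 in those tumors. Plin1 was not among the 7, and Lep and Retn were fitted without the filter. Without S46 alone, the differences of Lep, Cidec, Cfd and Pparg were −0.0531, −0.56, −0.15 and −0.0032, and Cd36 was at −1.31, with a 95% interval from −2.53 to −0.0927 (unadjusted limma p = 0.0364, adjusted p = 0.304). Adipoq was then at 0.57, Retn at 0.70, Fabp4 at −1.09 and Lpl at −1.25. Without S41, the shallow tumor, Plin1 changed sign, to 0.18, and 0 of these 10 genes passed. The mean of 13 skeletal muscle genes, which was 7.90 ± 2.0 (SD, n = 11) in Rag2-/- and 10.15 ± 2.41 (n = 8) in Rag2+/- tumors, was set beside the genotype. All 13 had a lower mean in Rag2-/- tumors, with differences from −2.42 to −2.12 on the log2 scale, and 11 had an unadjusted limma p under 0.05, beside 16.3% of all genes tested. After adjustment 0 of the 13 passed (limma adjusted p from 0.301 to 0.308). With the muscle mean as a covariate the differences became 0.73 for Fabp4, 0.40 for Lpl, 0.16 for Cd36 and 1.52 for Plin1. They became 2.72 for Adipoq, 2.09 for Lep, 2.44 for Retn, 2.80 for Cfd, 2.34 for Cidec and 1.05 for Pparg, so that all 10 were above 0, and none was called.

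The fat cell genes rose and fell together from tumor to tumor. Over the 45 pairs of the 10 genes, Spearman's rho across the 19 tumors ran from 0.48 to 0.96, with a median of 0.81. Against Adipoq, rho was 0.90 for Retn (r = 0.95), 0.90 for Lep (r = 0.95), 0.87 for Cfd (r = 0.93) and 0.85 for Pparg (r = 0.89). Spearman's rho was 0.84 for Cidec (r = 0.92) and 0.84 for Plin1 (r = 0.91), and 0.63 for Lpl (r = 0.70), 0.61 for Fabp4 (r = 0.82) and 0.49 for Cd36 (r = 0.69). In 100000 permutations of the tumors, with adjustment over 39 relations, rho had an adjusted p of 9.75e-05 for Retn, Lep, Cfd and Pparg, of 0.000156 for Cidec, 0.000195 for Plin1, 0.0174 for Lpl, 0.0225 for Fabp4 and 0.0698 for Cd36. For Pearson's r the adjusted permutation p was 5.57e-05 for Fabp4, 0.00312 for Lpl and 0.00407 for Cd36. Of the 12825 other genes with a mean above 0, Cfd ranked 2nd by rho with Adipoq, Pparg 5th, Cidec 6th and Plin1 7th, while Lpl was 231st, Fabp4 296th and Cd36 815th. The 10 genes were chosen with earlier results of these data known, which the p-values do not take into account. The points share their library and its scaling, and the tumors are unevenly spread, so the relation was also read on each side of the gap in Adipoq.

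Within the 6 tumors above that gap, rho with Adipoq was 1 for Plin1, Cidec and Cfd, 0.94 for Fabp4 and Retn, and 0.49 for Cd36. In the 13 below it, rho was 0.68 for Lep, 0.67 for Retn, 0.59 for Cfd, 0.56 for Pparg and 0.48 for Plin1 and Cidec. It was 0.27 for Lpl, −0.11 for Fabp4 and −0.12 for Cd36, so that among these 13 tumors Fabp4 and Cd36 did not rise with Adipoq. Without S46 and S47, the tumors farthest from the Adipoq median, r was 0.92 for Lep and 0.47 for Cd36. Leaving out S56 instead raised rho to 0.96 for Plin1 and Cidec, 0.97 for Cfd, 0.87 for Lpl, 0.72 for Fabp4 and 0.71 for Cd36. Within genotypes the median rho over the 9 genes was 0.86 in Rag2-/- and 0.81 in Rag2+/- tumors, and without S41 it was 0.84 in the pool. For Retn, leaving out S41 raised rho with Adipoq from 0.90 to 0.95.

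In the 6 tumors above the gap the levels kept a rough order. Relative to Adipoq, per length and on the log2 scale, Fabp4 was higher by 3.18 ± 0.48 (SD, n = 6), Cfd by 2.98 ± 0.77, Lpl by 2.10 ± 1.30 and Cd36 by 1.80 ± 1.25. Cidec differed from Adipoq by 0.11 ± 0.33 and Plin1 by −0.52 ± 0.45, while Retn was at −1.58 ± 0.51, Lep at −2.30 ± 0.90 and Pparg at −2.45 ± 0.85. Of neighbours in this order, Fabp4 and Cfd, Cfd and Lpl, Lpl and Cd36, Retn and Lep, and Lep and Pparg differed by no more than the larger of their SDs.

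Of the 10 genes, the uptake genes Cd36, Lpl and Fabp4 passed the test of rho with skeletal muscle genes over the 19 tumors, Fabp4 did not pass by Pearson's r, and the other 7 passed neither. The muscle list held 13 genes, mostly of fast fibres and none of them a slow-fibre isoform, among them Ckm, muscle creatine kinase, at 14.53 in S56, and Mb, myoglobin, at 12.69 in S56. Spearman's rho with the mean of the list was 0.70 for Cd36 (r = 0.60, adjusted permutation p of rho 0.00591 and of r 0.0193), 0.67 for Lpl (r = 0.59, 0.0118 and 0.0228) and 0.61 for Fabp4 (r = 0.47, 0.0256 and 0.0809). It was 0.53 for Cidec, 0.50 for Plin1 and Pparg and 0.49 for Cfd, with adjusted permutation p-values of 0.0659 to 0.0698. For Lep it was 0.34 (0.219), for Adipoq 0.29 (0.292) and for Retn 0.23 (0.389). Without S56 and S48, the tumors with the most and the least muscle signal, r was 0.50 for Cd36, 0.49 for Lpl and 0.40 for Fabp4. These were then not the highest 3, since r was 0.55 for Cfd, 0.48 for Cidec and 0.46 for Plin1 and Adipoq. For Lep, Retn and Pparg it was 0.39, 0.36 and 0.26. Within the 8 Rag2+/- tumors rho was 0.98 for Cd36, 0.90 for Lpl and 0.90 for Fabp4, and within the 11 Rag2-/- tumors 0.61, 0.52 and 0.35. In those 11 tumors Cidec (0.46), Pparg (0.43) and Adipoq (0.39) were above Fabp4, and Cfd, Plin1, Lep and Retn were below it. In the 13 tumors below the Adipoq gap rho was 0.82 for Cd36, 0.81 for Lpl and 0.68 for Fabp4, and in the 6 above the gap 0.09, −0.26 and −0.37. Leaving out S46 alone raised rho to 0.91 for Cd36, 0.87 for Lpl and 0.80 for Fabp4, still the highest 3, and to 0.72 for Cidec, 0.68 for Plin1, 0.68 for Pparg and 0.67 for Cfd, and no p was computed without it. Adipoq itself had a rho of 0.50 with muscle without S56 and of 0.56 without S56 and S48. The difference between the relations of Adipoq and of the uptake genes was not tested.

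**Figure D3:**
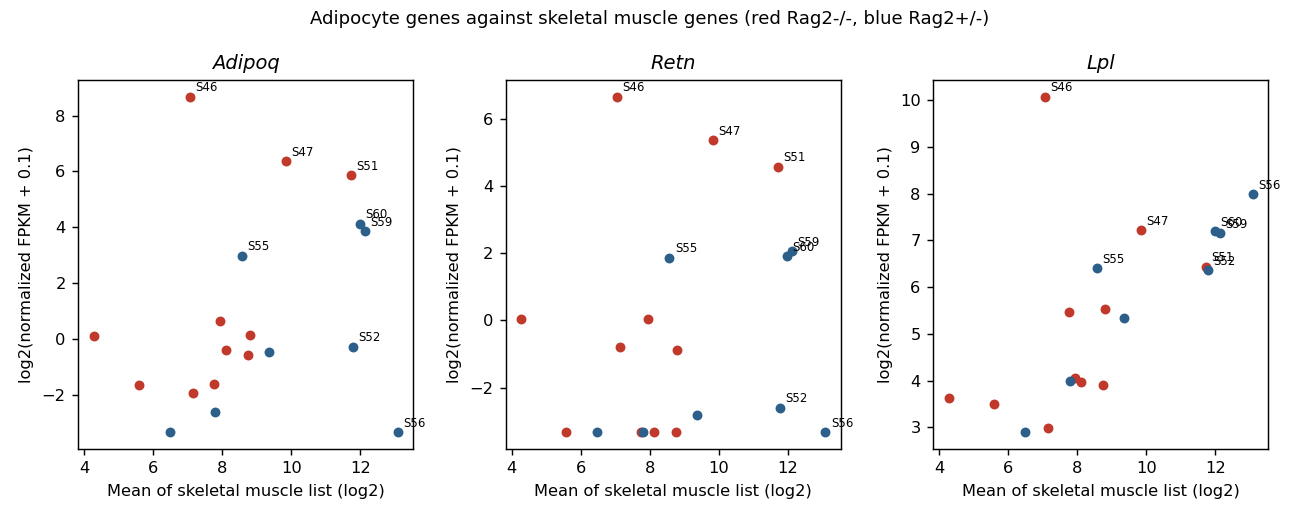
Adipoq, Retn and Lpl (vertical axes, log2(normalized FPKM + 0.1)) against the mean log2 value of 13 skeletal muscle genes (horizontal axes) in 19 tumors, red for Rag2-/- and blue for Rag2+/-. S56, at the far right, is at −3.32 for Adipoq and Retn and has the second highest Lpl value, and S46, with a muscle mean of 7.05, is at the top of all 3 panels.

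A fit on both quantities at once did not part the uptake genes from the droplet genes and Cfd by their muscle slopes. Per unit of Adipoq and per unit of the muscle mean, both log2, the slopes were 0.92 and −0.09 for Retn and 0.86 and 0.08 for Lep. They were 0.93 and 0.36 for Cidec, 1.01 and 0.36 for Cfd, 0.87 and 0.29 for Plin1 and 0.39 and 0.02 for Pparg. For Lpl they were 0.33 and 0.36, for Cd36 0.29 and 0.33 and for Fabp4 0.51 and 0.27. When each tumor was left out in turn, the muscle slope stayed between 0.15 and 0.51 for Lpl, between 0.18 and 0.48 for Cd36 and between 0.06 and 0.42 for Fabp4. It stayed between 0.10 and 0.45 for Cidec, 0.17 and 0.48 for Cfd, 0.0031 and 0.40 for Plin1, 0.0082 and 0.18 for Lep, −0.20 and −0.04 for Retn and −0.06 and 0.12 for Pparg. The heart and muscle form of the binding protein, Fabp3, a paralog of Fabp4, had slopes of −0.01 and 0.98. The skin and macrophage form, Fabp5, had a rho of 0.73 with Adipoq and 0.23 with the muscle list.

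S46 and S56 were the extremes and differed from each other. Both are outside the 15 tumors that the study analysed. In S46, with a muscle mean of 7.05, the 9 endothelial genes averaged 4.72 and the 8 macrophage genes 8.63, each the highest of the 19 tumors, and 8 of the 8 macrophage genes peaked there. In S56, with a muscle mean of 13.09, the highest, the endothelial mean was 4.42, the second highest, and the macrophage mean 5.74, the lowest. The 5 Schwann cell genes also peaked in S56, at a mean of 4.31. Spearman's rho with the endothelial mean was highest for Cd36, at 0.52, and Lpl, at 0.49, and lowest for Retn, at 0.01, and with the macrophage mean it ran from 0.20 for Cidec to 0.52 for Pparg. None of these 20 relations had an adjusted permutation p of rho under 0.05. By Pearson's r, which weighs the extremes more, Lpl (0.64, adjusted permutation p 0.0119), Cd36 (0.62, 0.0140) and Fabp4 (0.57, 0.0259) passed with endothelium. Adipoq (0.62, 0.0119), Pparg (0.64, 0.0259), Lep (0.58, 0.0259) and Retn (0.56, 0.0247) passed with macrophages by the same permutation test. Without S46 and S56, r with the endothelial mean was 0.24 for Cd36, 0.25 for Lpl and 0.18 for Fabp4, and with the macrophage mean 0.26 for Adipoq, 0.37 for Pparg, 0.20 for Lep and 0.27 for Retn. Without S46 alone, r with the macrophage mean was 0.40 for Adipoq, 0.27 for Pparg, 0.27 for Lep and 0.33 for Retn, and without S56 alone it was 0.58, 0.76, 0.61 and 0.56. Within the 8 Rag2+/- tumors rho with the macrophage mean was 0.83 for Adipoq, 0.90 for Pparg, 0.87 for Lep and 0.85 for Retn, and within the 11 Rag2-/- tumors 0.14, 0.38, 0.17 and 0.20. The mean of 6 epidermal genes ran from −2.76 in S46 to −0.85 in S47 among Rag2-/- tumors and from −2.82 in S60 to −1.39 in S55 among Rag2+/- tumors. Of these genes the skin keratin Krt5 was above −3.32 in 3 tumors, S47 (1.49), S55 (−0.67) and S51 (−0.94), while Lor, of the cornified layer, was highest in S58 (0.32) and Krt10 in S51 (1.35) and S58 (1.31), and S58 is below the Adipoq gap. The part of endothelium, macrophages and skin in the fat cell values was not tested.

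Other genes of the fat cell were read from 8 lists, 74 genes in all, which do not contain the 10. By limma 0 genes of any list passed at an adjusted p of 0.05, beside 4 of 12826 over all genes. The highest value of a gene fell in S46 for 37 of the 74, against 14.5% of all genes with a mean above 0, and in S56 for 16, against 22.3% of all genes with a mean above 0. The bases differ, since the 74 include genes with a mean below 0, some of which, such as Adig and Trarg1, peaked in S46. Of the genes with a mean above 0, rho with Adipoq was over 0.5 for 767 of 12825, or 5.98%.

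Of 10 genes of lipolysis and the lipid droplet, 8 peaked in S46, and 7 of the 8 with a mean above 0 had a rho over 0.5 with Adipoq. They included the lipases Pnpla2 (0.54), Lipe (0.62) and Mgll (0.64). The paralogs of Plin1 spread widely. Spearman's rho was 0.69 for Plin2, 0.66 for Plin4 and −0.22 for Plin3, and Plin5, which coats droplets in oxidative muscle, had a rho of 0.40 with Adipoq and 0.80 with muscle. Cidea, the paralog of Cidec, was at −3.32 in 8 of 19 tumors and reached 2.32 in S46. The lowest and highest differences between genotypes in this list were −1.10 for Plin5 and 0.40 for Adrb3, the adrenergic receptor of fat cells.

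Of 12 tested genes of fatty acid and triglyceride synthesis, 5 had a rho over 0.5 with Adipoq. Scd1, the desaturase, had a rho of 0.75 and reached 10.95 in S46 from a median of 4.58, and Dgat2, which makes triglyceride, had 0.65. Pck1, of glyceride synthesis, had a rho of 0.91 but a mean below 0. Fasn and Acaca, which build fatty acids, had rho values of −0.01 and −0.02 with Adipoq and of −0.81 and −0.78 with the muscle list, although both peaked in S46. Their differences between genotypes, 0.90 and 0.70, and that of Lpin1, −1.46, had unadjusted limma p-values of 0.0204, 0.0108 and 0.0352 and an adjusted p of 0.301 each. The lowest difference was −1.57, for Gpd1, and the highest that of Fasn.

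Of 10 regulators, 3 had a rho over 0.5 with Adipoq: Cebpa at 0.79 and Cebpb at 0.64, which act with PPARγ, and Klf15 at 0.56. Klf15 also followed muscle, with a rho of 0.84. The differences ran from −1.08 for Klf15 to 0.31 for Cebpd. Of 8 tested genes of lipid uptake and transport, 4 had a rho over 0.5, led by Angptl4, an inhibitor of lipoprotein lipase, at 0.73. Gpihbp1, which carries that enzyme across capillaries, was at −0.01. Slc2a4, the insulin-responsive glucose transporter of fat and muscle, had 0.48 with Adipoq and 0.90 with muscle. The lowest difference was −2.06, for Fabp3 (unadjusted limma p = 0.05002, adjusted p = 0.306), the highest 0.46, for Angptl8, and Lmf1, which matures lipases, differed by −0.28 (adjusted p = 0.301).

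**Figure D4:**
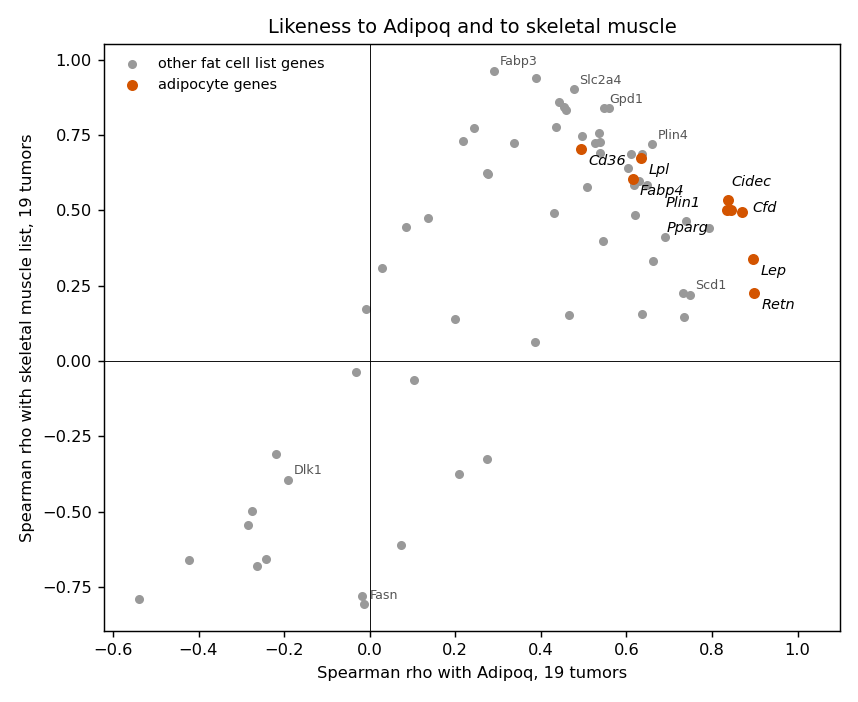
Spearman's rho with Adipoq (horizontal axis) and with the mean of 13 skeletal muscle genes (vertical axis) across 19 tumors for 9 fat cell genes (orange) and the other listed fat cell genes with a mean above 0 (grey). Lep and Retn sit at the far right with low muscle values, and Fasn lies at the bottom near 0 for Adipoq. Cd36, Lpl and Fabp4 have the highest muscle values of the 9 genes, below those of Slc2a4 and Fabp3.

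Of 8 adipokines and receptors, 1 had a rho over 0.5 with Adipoq, Rarres2, the adipokine chemerin, at 0.74. The receptors of adiponectin were at 0.24 (Adipor1), 0.43 (Adipor2) and 0.22 (Cdh13). Cdh13 and Adipor1 differed between genotypes by −1.13 and −0.72, with unadjusted limma p-values of 0.00434 and 0.0312 and an adjusted p of 0.301 each. These were 2 of the genes with high rho to muscle, 0.73 for Cdh13 and 0.77 for Adipor1. The highest difference in the list was 0.72, for Rbp4.

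All 8 other white fat markers peaked in S46, among them Cidea, which brown fat also makes, with Car3, carbonic anhydrase 3, at 11.13 and Sncg at 8.63. Car3 was nearly as high in S56, at 10.92, and had a rho of 0.76 with muscle. Differences ran from −1.47 for Car3 to 1.203 for Nnat. Of 7 brown fat genes, 2 peaked in S46, Ucp1 and Elovl3, the latter at −1.55. Ucp1, the uncoupling protein that defines brown fat, was at −3.32 in 3 of 11 Rag2-/- and 5 of 8 Rag2+/- tumors and reached 0.01 at most, in S46. Cox8b and Ppargc1a, which muscle also uses, had rho values of 0.94 and 0.86 with the muscle list, and Cox8b had the lowest difference, −1.77, and Ucp1 the highest, 0.80. Of 8 progenitor genes, 0 peaked in S46, against 14.5% of all genes with a mean above 0. Of the 8, 2 had a rho over 0.5 with Adipoq, Dpp4 (0.62) and Pi16 (0.54), against 5.98% of all genes. Dlk1, the preadipocyte factor that falls when fat cells mature, was lowest in S46, at 1.15, against a median of 7.51 over the 19 tumors. Its rho with Adipoq over the 19 tumors was −0.19. Dlk1 had the highest difference, 0.95, and Cd24a the lowest, −1.95 (unadjusted limma p = 0.0241, adjusted p = 0.301), with a rho of 0.86 to muscle.

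The genes most like Adipoq in pattern, outside the 10, were found by rho over the 19 tumors, counting only genes that averaged over 0 on the log2 scale, which leaves out Pck1 (0.91) and Pnpla3 (0.80). The first 12 were Cdo1 (0.88), Hp (0.86), Slc1a3 (0.85), C1s1 (0.82), Fxyd2 (0.82), Prkx (0.82), Arrdc4 (0.81), Adamts15 (0.81), Csf2rb (0.80), Cd209f (0.80), Cyp2f2 (0.80) and Cebpa (0.79). Cdo1 encodes cysteine dioxygenase and Hp haptoglobin, a plasma protein that binds free hemoglobin. Hp ran from 1.54 to 11.49, with a median of 3.54. Of the 12 genes, 9 were highest in S46. C1s1 and Cyp2f2 were highest in S51 and Arrdc4 in S60, and the rho of the 12 with the muscle list ran from 0.15 for Slc1a3 to 0.53 for Hp.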

How the data were processed

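RNA of 19 tumors, 11 Rag2-/- and 8 Rag2+/-, was sequenced in paired-end reads by a company (Novogene), 1 library per tumor. The deposited values are log2 of FPKM that the authors upper-quartile normalized after adding 0.1. Per the study's methods, reads were aligned to mouse B38 by OSA, the aligner of Omicsoft Array Studio, and quantified with Ensembl R86 gene models. The labels also name mm10, Trimmomatic 0.36, STAR 5.5.4b and HTSeq. The study's methods for differential expression use these for trimming, for alignment to mm10 and for gene counts, with another version number for STAR. Their role for the deposited values was not given. Counting by strand was not given in the sources used here. Upper-quartile scaling let the summed FPKM differ between tumors, from 383037 to 987483, and it was highest in S56. All 19 columns were matched to tumors, and 48349 of 48795 gene IDs to symbols.

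The genotypes were compared with limma 3.58.1 for genes averaging more than 0 on the log2 scale (R 4.3.3, intensity trend, Benjamini-Hochberg at 0.05), and single genes by two-sided exact permutation. Lep and Retn, below the filter, were read from a fit without it. Correlations used 100000 permutations of the tumors, adjusted over 39 relations. Other steps used Python 3.11.15, numpy 2.4.6, pandas 2.3.3, scipy 1.17.1 and matplotlib 3.10.9. Depth was estimated from genes with 1 transcript in GENCODE vM21 (GRCm38), since low values are whole multiples of 1 fragment: within 0.05 of a whole number in 79.7 to 89.1% of the values checked. Fragment numbers use each gene's longest transcript and are approximate. The limma script was tested on simulated data.

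The 10 genes and the lists were chosen with earlier results of these data known. The text names the 10 genes, the 12 other genes with the highest Spearman rho with Adipoq among those with a mean log2 value above 0, the genes of each list with the lowest and highest difference and up to 4 with the lowest unadjusted p among those under 0.05, paralogs, defining markers of other cell types, Rag2 and Trp53. Other listed genes were named after their values were seen. Alternatives were other samples, filters, pseudocounts, scalings, variance models, covariates (the mean of 13 muscle genes, Xist) and tests.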

Additional observations from a re-analysis of the deposited data

How the results depend on the processing

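The count of fat cell genes called between genotypes, 0, did not change under any alternative run, for the genes each could test: Plin1 had no value in the 15 tumors or without S46, where its mean fell below the filter. The count over all genes, 4, became 15 in the 15 tumors that the study analysed, 34 without the filter, 0 with a mean above 2, 2 with the muscle covariate, 2 with each tumor scaled to the same summed FPKM and 0 by exact permutation, and it was 3 to 7 without each tumor in turn, 7 without S51 and 7 without S56. The scaling to summed FPKM was chosen after seeing the data, and it moved the median difference of all genes from 0.06 to 0.42. Of 268 alternative values for the 10 differences, 231 kept their direction and 37 reversed, and 0 became significant. These leave out 40 values equal to the reported difference, from other filters, variance models or tests. In the 15 tumors Adipoq was −0.23, Lep −0.79, Retn −0.20, Cidec −0.72, Cfd −0.71 and Pparg −0.0426. With the muscle covariate Fabp4 was 0.73, Plin1 1.52, Lpl 0.40 and Cd36 0.16. With Xist as covariate Fabp4 was 0.17 and Plin1 0.63. Plin1 was also 0.25 with a pseudocount of 1, 0.10 with summed FPKM and 0.18 without S41, and Cidec −0.0502 with a pseudocount of 0.01. Without each tumor in turn, Plin1 ran from −0.72 to 0.35, Cidec from −0.56 to 0.83, Cfd from −0.15 to 1.17, Pparg from −0.0032 to 0.66 and Lep from −0.0531 to 1.27. The median rho with Adipoq, 0.84, was 0.48 below the gap in Adipoq, a split chosen after seeing the data. The median rho with muscle, 0.50, was 0.70 within Rag2+/- tumors, and in the 6 tumors above the gap rho with muscle was below 0 for 9 of the 10 genes, from −0.54 for Pparg to −0.26 for Lpl, and 0.09 for Cd36. The median rho with endothelium, 0.33, was 0.0119 within Rag2+/- tumors, and that with macrophages, 0.36, was 0.18 within Rag2-/- and 0.57 within Rag2+/- tumors. The cause of these changes was not tested. At the estimated depth of S41 a low value rests on single fragments. No paired analysis was possible because the tumors share no replicate numbers between genotypes.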
